A study of Mus musculus with 6 samples.

Results

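The beta-defensins of skin described here are 7 mouse genes, Defb1, Defb2, Defb3, Defb4, Defb6, Defb8 and Defb14. They were taken by their symbols from the 23951 gene rows of an RNA sequencing table of whole mouse skin, in which 43 rows in all carry a Defb symbol. The study compared lesional skin of 3 JunBΔep mice, labelled JunB dep, with skin of 3 control littermates, labelled JunB +/+. All 6 mice were C57Bl/6 and 6 to 7 months old. JunBΔep mice carry floxed Junb and a K5-Cre transgene. Junb, a subunit of the AP-1 transcription factor, is thereby deleted in cells that express keratin 5, such as basal keratinocytes. The paper describes the deletion as epidermal, so whole skin also holds cells that keep the gene. The comparison asks how the skin of mice with this deletion, which becomes inflamed, differs in gene expression from control skin. Each mouse is named by its group and the replicate number of its label, 0, 1 or 2.

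Beta-defensins are small, positively charged secreted peptides that damage microbial membranes, and their fold is held by disulphide bonds between conserved cysteines. Epithelia such as the epidermis make them. Some, such as Defb1, are made without stimulation, while Defb3, Defb4 and Defb14 are known to be induced by microbial products and by the cytokines IL-17A, IL-22, IL-1 and IL-36, through NF-κB, IκBζ (Nfkbiz) and STAT3. Defb14 is the mouse counterpart of human beta-defensin 3. Some beta-defensins also attract leukocytes that carry the chemokine receptors CCR6 or CCR2.

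The 6 libraries did not all stand together. The library labelled JunBΔep 0 lay apart on the first principal component, which held 42.8% of the variance, at 113 against -53.3 to 28.4 for the other 5. Its Junb level was 129.6 FPKM (fragments per kilobase of transcript and per 1000000 fragments), above the 56.9 to 72.4 FPKM of the controls, whereas JunBΔep 1 had 42.8 FPKM and JunBΔep 2 had 28.0 FPKM. The deleted gene therefore went against the label in this library, as whole-skin Junb, and the difference of each of the 7 genes that can be tested without it is also given so. In the same library Krt14, at 837 to 1304 FPKM in the other 5 mice, and Krt6a, Krt16 and S100a9, at 3.81 FPKM or more in those mice, were listed at 0, so that a 0 there can be a failed estimate. The FPKM values summed to 481078 to 630363 per mouse, and the number of reads behind them is unknown. The p-values measure the spread between these 6 mice. In whole skin, fewer cells of a type and less RNA per cell cannot be told apart.

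The coding sequences below are shown because related genes of this family differed in opposite ways between mice, and reads from near-identical stretches can be shared between them. They were read from the NCBIM37 (mm9) genome with the GENCODE vM1 gene models, 5′ to 3′, and capitals mark the cysteine codons among the last 45 codons, the part that holds the defensin fold.
Defb14, chr8:19194357-19195212, plus strand: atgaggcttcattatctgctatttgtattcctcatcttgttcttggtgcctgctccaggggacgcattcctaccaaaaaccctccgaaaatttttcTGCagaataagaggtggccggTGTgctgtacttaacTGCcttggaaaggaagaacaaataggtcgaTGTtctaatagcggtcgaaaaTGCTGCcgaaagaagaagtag
Defb3, chr8:19293360-19295291, plus strand: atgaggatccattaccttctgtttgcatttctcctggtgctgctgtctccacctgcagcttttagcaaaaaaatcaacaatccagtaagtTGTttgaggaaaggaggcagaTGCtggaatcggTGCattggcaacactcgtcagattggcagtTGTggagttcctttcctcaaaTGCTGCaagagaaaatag
Defb4, chr8:19198706-19201545, plus strand: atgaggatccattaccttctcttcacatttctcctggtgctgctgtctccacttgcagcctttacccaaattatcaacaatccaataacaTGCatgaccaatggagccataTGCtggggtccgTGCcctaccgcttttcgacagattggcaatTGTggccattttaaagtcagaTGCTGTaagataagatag
Defb6, chr8:19225478-19228209, plus strand: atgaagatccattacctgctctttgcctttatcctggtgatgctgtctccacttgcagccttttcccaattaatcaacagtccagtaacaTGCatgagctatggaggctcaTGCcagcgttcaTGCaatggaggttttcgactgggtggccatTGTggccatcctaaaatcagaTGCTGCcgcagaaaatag
Defb8, chr8:19445769-19447606, minus strand: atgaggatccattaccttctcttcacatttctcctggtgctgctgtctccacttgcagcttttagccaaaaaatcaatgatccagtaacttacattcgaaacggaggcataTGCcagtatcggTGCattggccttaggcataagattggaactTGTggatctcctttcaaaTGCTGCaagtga
Each of these genes has 2 exons, and the coding sequences are 183 to 204 bases long. Defb14, Defb3, Defb4 and Defb6 each have 6 such cysteine codons, as do Defb1 and Defb2, and Defb8 has 5. In Defb8 the first of the cysteine codons of the other genes is absent from the aligned stretch. Defb3 and Defb8 were identical at 83.1% of their aligned coding bases, Defb4 and Defb6 at 78.6%, and Defb3 and Defb4 at 76.0%. Defb14 was less like them, at 62.1% against Defb3, 58.5% against Defb6, 56.4% against Defb8 and 56.3% against Defb4. Defb4 and Defb8 shared an exact run of 72 bases, the longest among the 7 genes, and the authors' alignment kept reads with up to 20 matching positions. The levels of Defb3, Defb4 and Defb8 are therefore uncertain where reads fell in shared stretches.

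All 7 genes lie on chromosome 8. Defb14 and Defb4 are 3.49 kb apart and are followed by Defb6, Defb5 and Defb3, then by Defb8 and Defb7. Defb1, at chr8:22887071-22905657, and Defb2, at chr8:22950398-22953954, lie in a separate group that starts 3389 kb beyond Defb7.

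None of the 7 genes passed the test between JunBΔep and control skin. All 7 had a mean of at least 0.1 FPKM and were tested with limma on log2(FPKM + 0.5), and their adjusted p-values ran from 0.677 to 0.842. At an unadjusted p below 0.05 the count was also 0 of 7. Of the 17021 genes tested, 235 (1.38%) had an adjusted p below 0.05, all of them lower in JunBΔep skin, and 1287 had an unadjusted p below 0.05. The fitted difference, JunBΔep minus control, was above 0 for 6 of the 7 genes, with Defb8 the exception. Its median over the 7 genes was 0.82 on the log2 scale, against 0.03 over all genes tested, of which 53.4% were above 0. Without the library labelled JunBΔep 0, 6 of the 7 genes could be tested, 5 were above 0, 0 passed and the median was 0.20.

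**Figure D1:**
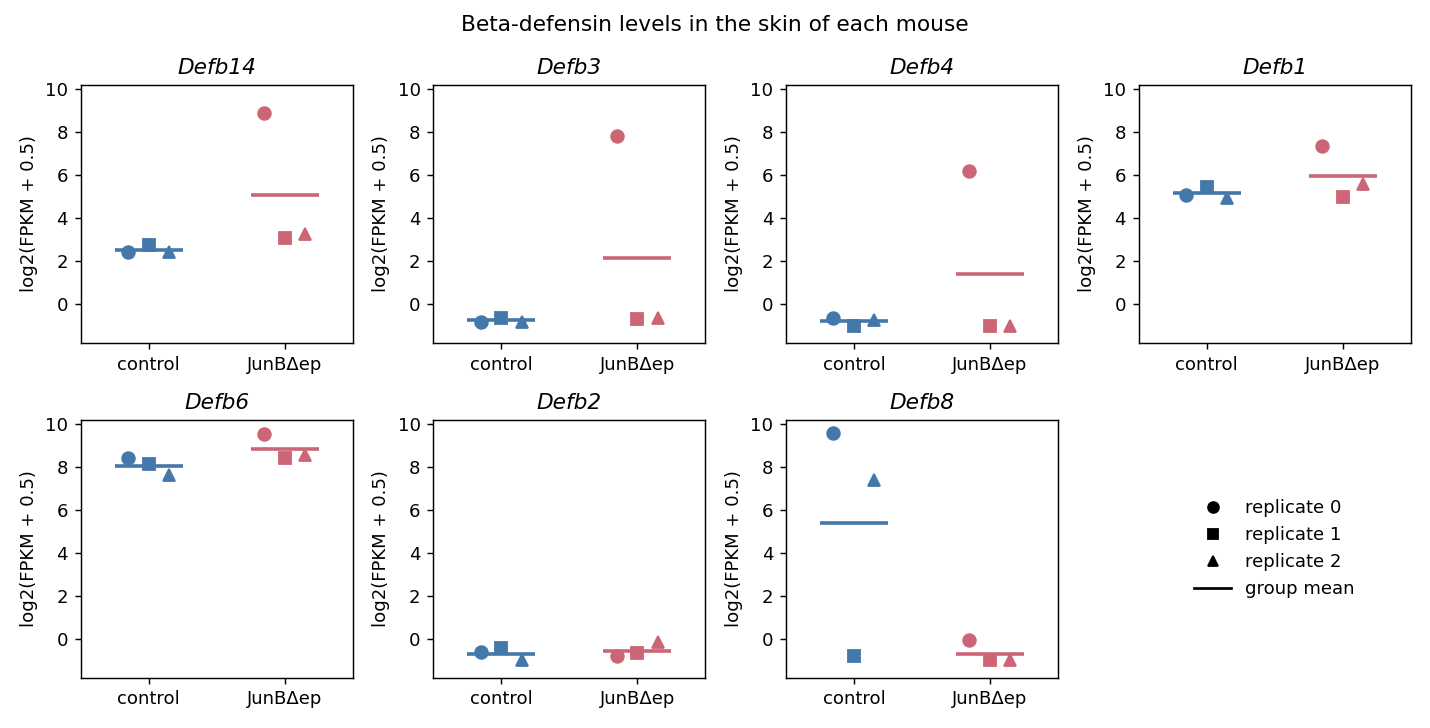
Level of each of the 7 beta-defensins in each mouse, as log2(FPKM + 0.5), with a horizontal line at each group mean; circles, squares and triangles are replicates 0, 1 and 2. The library labelled JunBΔep 0 is the highest point for Defb14, Defb3, Defb4, Defb1 and Defb6, and Defb8 is high in control 0 and control 2.

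The inducible genes Defb14, Defb3 and Defb4 were abundant in a single library. Defb14 measured 4.81, 6.21 and 4.81 FPKM in the controls, in the order 0, 1 and 2, and 468, 7.88 and 9.19 FPKM in JunBΔep 0, 1 and 2. All 3 JunBΔep libraries lay above all 3 controls, the library labelled JunBΔep 0 at 88.7 times the control mean and the others at 1.49 and 1.74 times. The means were 5.27 ± 0.806 and 162 ± 265 FPKM (SD, n = 3 each). The difference was 2.55 on the log2(FPKM + 0.5) scale (SE 1.55, adjusted p = 0.722 by limma), so it did not exceed the spread between mice. Without the library labelled JunBΔep 0 it was 0.65 (SE 0.20, unadjusted p = 0.0212, adjusted p = 0.430 by limma). An exact permutation test of 3 mice against 3 cannot give a two-sided p below 0.1.

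Defb3, which responds to bacterial products in mouse epithelia, was at 0.0715, 0.1496 and 0.0657 FPKM in the controls and at 223, 0.125 and 0.148 FPKM in JunBΔep 0, 1 and 2. After each value was multiplied by its library's total relative to control 0 (0.955 to 1.14, estimated from the low values of all genes), the 5 low values were whole multiples, within 0.01, of a single step, at 1 or 2 steps each, as a read or a pair of reads would give. Steps below are counted after the same correction. Outside the library labelled JunBΔep 0, Defb3 was thus hardly detected in either group, and the groups overlapped. The difference was 2.92 on the log2 scale (SE 2.29, adjusted p = 0.722 by limma), and 0.10 (SE 0.15, adjusted p = 0.858 by limma) without that library.

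Defb4, another inducible gene of the cluster, was at 0.151, 0 and 0.0923 FPKM in the controls and exceeded this range only in the library labelled JunBΔep 0, with 72.5 FPKM. It was listed at 0 in JunBΔep 1 and JunBΔep 2, below controls 0 and 2. The difference was 2.19 on the log2 scale (SE 1.95, adjusted p = 0.725 by limma). Without that library the mean of Defb4 fell under 0.1 FPKM and it could not be tested.

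By rank among all genes, Defb14 stood at 203, Defb3 at 380 and Defb4 at 1249 in the library labelled JunBΔep 0. In the other 5 mice Defb14 ranked between 7030 and 9761, and Defb3 ranked between 15755 and 17011.

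Defb1 and Defb6 were present in every mouse. Defb1, regarded as the constitutive epithelial beta-defensin, was at 33.4, 42.6 and 30.1 FPKM in the controls and at 163, 30.9 and 47.7 FPKM in JunBΔep 0, 1 and 2. JunBΔep 1 lay within the range of the controls, so the groups overlapped. The means were 35.4 ± 6.47 and 80.6 ± 72.0 FPKM (SD, n = 3 each), with a difference of 0.82 on the log2 scale (SE 0.60, adjusted p = 0.722 by limma). Without the library labelled JunBΔep 0 the difference was 0.13 (SE 0.26, adjusted p = 0.888 by limma).

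Defb6 was the most abundant of the 7 genes in every mouse but control 0, where Defb8 exceeded it. Defb6 was at 337, 281 and 195 FPKM in the controls and at 753, 339 and 377 FPKM in JunBΔep 0, 1 and 2. It ranked between 136 and 365 among all genes, between the percentiles 97.9 and 99.2 of the genes tested in a mouse. The groups did not overlap, but the lowest JunBΔep value, 338.65 FPKM, was barely above the highest control, 337.24 FPKM. The means were 271 ± 71.9 and 489.6 ± 229 FPKM (SD, n = 3 each), and the difference of 0.79 on the log2 scale (SE 0.38, adjusted p = 0.719 by limma) did not pass the test. Without the library labelled JunBΔep 0 it was 0.44 (SE 0.29, adjusted p = 0.796 by limma).

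Defb6 is known from skeletal muscle as well as epithelia, and skeletal muscle RNA moved between these groups in the other direction. The 8 muscle markers, Ckm, Acta1, Myh1, Myh2, Myh4, Tnnt3, Mylpf and Myoz1, summed to 14551 to 18627 FPKM in the controls and to 1404 to 3343 FPKM in JunBΔep skin. All 8 were wholly below the controls, as were 9.16% of all genes tested, and 7 fell past the threshold (Myh4 had an adjusted p of 0.0561 by limma). Without the library labelled JunBΔep 0 all 8 were wholly below the controls, beside 13.1% of all genes, and 1 passed. No gene passed, these 8 included, with the replicate number or the number series of the sample titles as a block, or when any control or JunBΔep 1 was left out. The part of this in the Defb6 level was not tested.

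Defb14 and Defb6 were thus the 2 of 7 genes with all JunBΔep libraries above all controls, and 0 of 7 lay wholly below. Over all genes tested, 5.62% were wholly above. With the median-ratio scaling between libraries Defb6 overlapped and the count was 1, and without the library labelled JunBΔep 0 it was 2, when 11.1% of all genes tested were wholly above. The library labelled JunBΔep 0 was the highest of the 6 mice for 5 of the 7 genes, and this library was the highest for 29.7% of all genes tested.

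Sample titles carry 1 of 2 number series, and the labels do not say what they mark. Controls 0 and 1 and the library labelled JunBΔep 0 belong to the lower series, and control 2 and JunBΔep 1 and 2 to the higher. Within the higher series Defb6 was at 195 FPKM in the control against 339 and 377 FPKM, and Defb14 at 4.81 FPKM against 7.88 and 9.19 FPKM. Within the lower series only the library labelled JunBΔep 0 represents JunBΔep, and both genes were higher in it than in both controls. With the number series as a block the difference was 1.08 on the log2 scale for Defb6 (unadjusted p = 0.00451, adjusted p = 0.204 by limma), 3.53 for Defb14 (unadjusted p = 0.0319, adjusted p = 0.517) and 1.22 for Defb1 (unadjusted p = 0.0399, adjusted p = 0.543). In this fit 3 of the 7 genes thus had an unadjusted p below 0.05, as did 1523 of all genes tested, and 0 genes passed after adjustment. The differences for Defb3, Defb4 and Defb8 were 4.34, 3.38 and -6.43, with adjusted p-values of 0.557 to 0.558 by limma.

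Keratinocyte RNA also varied between mice. Krt5, the keratin of basal keratinocytes whose promoter drives the Cre, was at 2198, 2538 and 1588 FPKM in the controls and at 3725, 1615 and 1658 FPKM in JunBΔep 0, 1 and 2. Its difference was 0.06 on the log2 scale (adjusted p = 0.970 by limma). Of the 6 basal markers tested, 4 were above 0 and 2 below, with Krt14, listed at 0 in the library labelled JunBΔep 0, at -3.71 with that library and at -0.03 without it (log2). Without that library 1 of the 6 was above 0 and 5 were below, and the difference for Krt5 was -0.34 (adjusted p = 0.817 by limma).

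Relative to Krt5 of the same mouse, a scaling chosen after the values had been seen, the gap between the groups was wider for Defb6, while its fitted difference, 0.74 on the log2 scale, was no larger than the unscaled 0.79 (adjusted p = 1.00 and 0.719 by limma). It was at 153, 111 and 122 FPKM per 1000 FPKM of Krt5 in the controls and at 202, 210 and 228 in JunBΔep 0, 1 and 2, or 129 ± 22.1 against 213 ± 13.1 (SD, n = 3 each). On this scale the library labelled JunBΔep 0 was the lowest of the 3 JunBΔep libraries for Defb6. Defb14 was at 2.19, 2.45 and 3.03 in the controls and at 125.6, 4.88 and 5.54 in JunBΔep skin. Defb1, at 15.2, 16.8 and 18.97 against 43.8, 19.2 and 28.8, no longer overlapped, though JunBΔep 1 was barely above control 2. Defb3 was at 0.0325 to 0.0590 in the controls and at 0.0775 to 59.8 in JunBΔep skin, the low values again resting on 1 or 2 steps. With this scaling 4 of the 7 genes were wholly above the controls, against 2.34% of all genes tested. The same 4 genes were, without the library labelled JunBΔep 0, still wholly above, but so were 22.6% of all genes tested. Krt5 itself was lower in JunBΔep 1 and 2 than in controls 0 and 1. In limma on these values 0 of the 17021 genes passed, 734 had an unadjusted p below 0.05, and the 7 genes had adjusted p-values from 0.643 upwards.

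**Figure D2:**
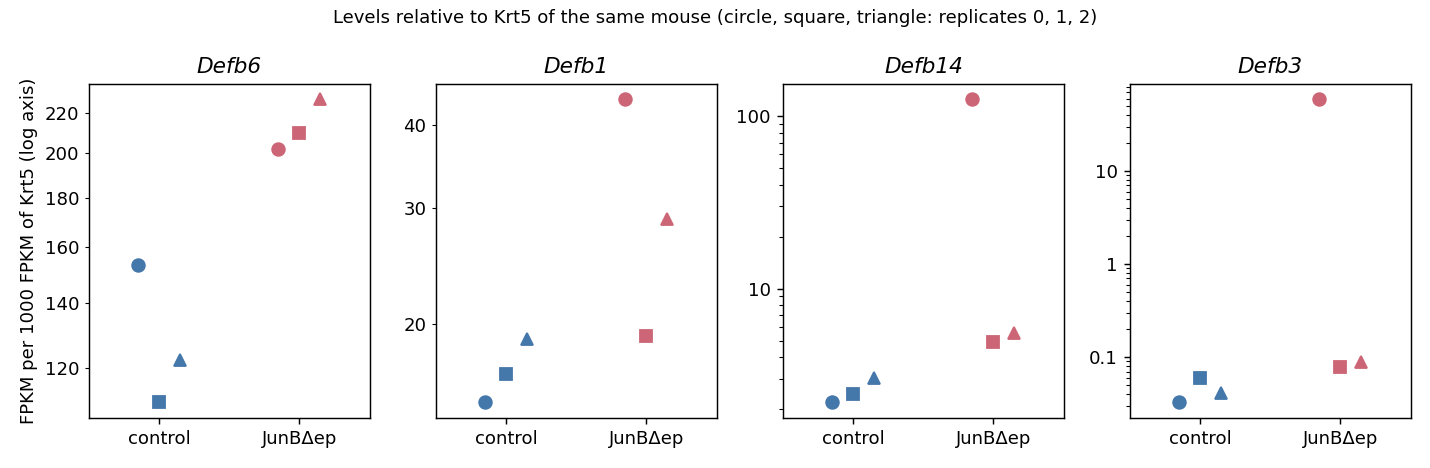
FPKM of Defb6, Defb1, Defb14 and Defb3 per 1000 FPKM of Krt5 in the same mouse, on log axes that differ between panels; each point is a mouse. In each panel the 3 JunBΔep points lie above the 3 control points, by the smallest margin for Defb1, where JunBΔep 1 is at 19.2 and control 2 at 18.97.

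Defb2, an inducible gene beside Defb1, was near the limit of detection in all mice. It was at 0.151, 0.238 and 0 FPKM in the controls and at 0.0735, 0.133 and 0.393 FPKM in JunBΔep 0, 1 and 2, which correspond, after the correction for library totals, to 2, 3 and 0 steps against 1, 2 and 5. The groups overlapped, and the difference was 0.14 on the log2 scale (SE 0.25, adjusted p = 0.842 by limma), or 0.27 (SE 0.26, adjusted p = 0.808 by limma) without the library labelled JunBΔep 0. Its direction turned when control 2 (-0.014) or JunBΔep 2 (-0.046) was left out. Defb2 was not among the genes that were highest in the library labelled JunBΔep 0.

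Defb8 showed the opposite pattern to Defb3, the gene it most resembles in sequence. Controls 0, 1 and 2 had 766, 0.0842 and 169 FPKM of it, and JunBΔep 0, 1 and 2 had 0.469, 0 and 0 FPKM. It was thus abundant in a pair of controls, ranking 108 in control 0 and 426 in control 2, and nearly absent from control 1, so the groups overlapped. The difference was -6.09 on the log2 scale (SE 2.57, adjusted p = 0.677 by limma), and -6.40 (SE 3.13, adjusted p = 0.735 by limma) without the library labelled JunBΔep 0. Leaving out control 1 gave -9.18 and leaving out control 0 gave -3.998. Its low values, 0.0842 FPKM in control 1 and 0.469 FPKM in the library labelled JunBΔep 0, were 1 and 6 steps after the correction for library totals.

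Defb7, the next gene beyond Defb8 on the chromosome and 80.9% identical to it over the aligned coding bases, had the same order of mice. It was at 20.6, 0 and 4.98 FPKM in the controls and was listed at 0 in all 3 JunBΔep libraries. Its difference was -2.95 on the log2 scale (SE 1.29, adjusted p = 0.686 by limma). Reads shared between the pair, which have an exact run of 39 bases in common, cannot be told apart in these values.

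RNA of other tissues differed between the same controls. The 6 liver markers summed to 1481 FPKM in control 0, where Alb was at 823 FPKM, but to 2.87 FPKM in control 1 and 2.36 FPKM in control 2. Defb8 measured 766, 0.0842 and 169 FPKM in the same mice. The liver sums of the JunBΔep libraries were 0.485 to 28.6 FPKM. The 7 neutrophil markers summed to 291 FPKM in control 0 and to 3.82 and 2.36 FPKM in controls 1 and 2. Unlike Defb8, neither the liver nor the neutrophil sum was higher in control 2 than in control 1. Bpifa2, of the airway and gland epithelium list, had the order of Defb8 in the controls, at 37.9, 0 and 0.660 FPKM. It was listed at 0 in JunBΔep skin. The other tested markers of its list, Foxj1 and Scgb1a1, did not have this order. The epididymal marker Crisp1 was at 0.163, 0 and 5.72 FPKM in the controls and at 3.55, 0 and 0 FPKM in JunBΔep 0, 1 and 2. Only 2 of the 6 epididymal markers reached the mean of 0.1 FPKM needed for the test. The other of these, Rnase10, was at 0.222 to 0.343 FPKM in the controls and at 0.172 to 0.330 FPKM in JunBΔep skin. The part of these in the Defb8 level was not tested.

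The make-up of the summed beta-defensin level differed from mouse to mouse. The 7 genes summed to 1142, 330.03 and 399 FPKM in the controls and to 1679.5, 378 and 435 FPKM in JunBΔep 0, 1 and 2. Defb6 gave 85.1% to 89.7% of the sum in control 1, JunBΔep 1 and JunBΔep 2. Defb8 gave 67.1% in control 0 and 42.4% in control 2. In the library labelled JunBΔep 0, Defb6 gave 44.8%, Defb14 27.9%, Defb3 13.3%, Defb1 9.72% and Defb4 4.32%. Without Defb8 the sums were 376, 329.95 and 229.7 FPKM in the controls and 1679.1, 378 and 435 FPKM in JunBΔep skin.

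**Figure D3:**
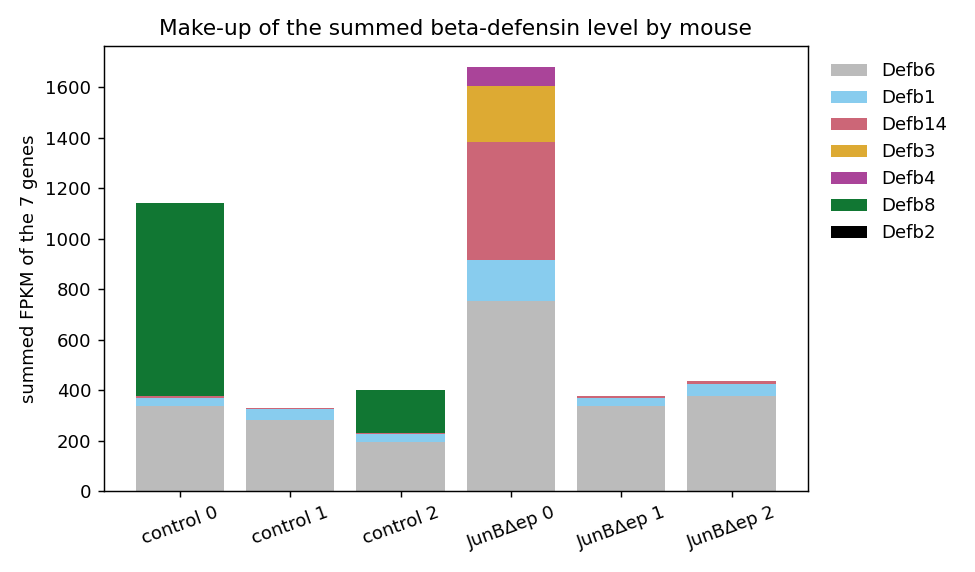
Summed FPKM of the 7 beta-defensins in each mouse, with each gene's share stacked in its own colour. Defb8 makes the extra height of control 0 (1142 FPKM in all), while Defb6, at 753 FPKM, makes 44.8% of the library labelled JunBΔep 0 (1679.5 FPKM), where Defb14, Defb3, Defb1 and Defb4 make nearly all of the rest.

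Little RNA came from the rest of the family. The 7 genes held 98.0% to 99.98% of the FPKM of all 43 Defb rows in each mouse. Of the other 36 rows, 20 were listed at 0 in all mice, and 5, Defb7, Defb12, Defb15, Defb25 and Defb35, reached a mean of 0.1 FPKM. None of these 5 passed the test. Defb15 was at 1.04, 2.77 and 0.767 FPKM in the controls and at 0, 0.792 and 1.52 FPKM in JunBΔep skin, and the others apart from Defb7 and Defb35 stayed below 1 FPKM. None of the 36 was highest in the library labelled JunBΔep 0, in which 34 of them were listed at 0. Defb5, between Defb6 and Defb3 on the chromosome and identical to Defb3 at 87.0% of the aligned coding bases, was at 0.115 FPKM in that library, a single step, beside 223 FPKM of Defb3.

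The cytokines known to induce beta-defensins in keratinocytes were also highest in the library labelled JunBΔep 0. Of 13 inducers measured, 11 were tested and 0 passed. All 11 differences were above 0, with a median of 1.59 on the log2 scale against 0.03 over all genes tested. All 11 were highest in that library, as were 29.7% of all genes tested. Without it 10 could be tested, 5 were above 0 and 5 below, 0 passed, and the median was 0.06. Il17a, which encodes the cytokine IL-17A, was at 0.0197, 0 and 0 FPKM in the controls and at 6.17, 0 and 0.122 FPKM in JunBΔep 0, 1 and 2. Il1b was at 3.36, 3.30 and 2.72 FPKM against 406, 1.28 and 2.59 FPKM, so that JunBΔep 1 and 2 lay below the controls. Il1f6, the gene of IL-36α, was at 1.62, 0.464 and 0.910 FPKM against 134, 5.43 and 10.7 FPKM. Like Defb14, Il1f6 did not overlap between the groups, nor did Il1a and Il1f9, and 5.62% of all genes tested were wholly above. For Il1f6 the difference was 3.86 on the log2 scale (SE 1.16, adjusted p = 0.377 by limma). It was 2.52 (SE 0.45, adjusted p = 0.122 by limma) without the library labelled JunBΔep 0. Without that library the same 3 inducers were wholly above the controls and Il1b and Il6 wholly below, beside 11.1% and 13.1% of all genes tested. Il22 was listed at 0 in the controls and in JunBΔep 1 and reached 0.370 FPKM in the library labelled JunBΔep 0, too low on average to be tested.

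The receptors of these cytokines and of microbial products had a median difference closer to that of all genes. Of 13 receptors tested, 10 were above 0 and 3 below, 0 passed, and the median was 0.17 on the log2 scale. With the library labelled JunBΔep 0 left out, 5 were above 0 and 8 below, with a median of -0.07. Il17ra, the shared receptor chain for IL-17A and IL-17F, was at 8.52 to 13.0 FPKM in the controls and at 9.51 to 14.4 FPKM in JunBΔep skin. Nod2, a sensor of bacterial cell wall, was at 3.30, 2.61 and 2.64 FPKM in the controls and at 22.4, 3.62 and 7.05 FPKM in JunBΔep 0, 1 and 2, and did not overlap (difference 1.42 on the log2 scale, adjusted p = 0.681 by limma, and 0.74, adjusted p = 0.679 without that library).

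Of 14 signalling genes and transcription factors downstream, 11 were above 0 and 3 below, and 0 passed. In all, 12 were highest in the library labelled JunBΔep 0, as were 29.7% of all genes tested. The median was 0.43 on the log2 scale, and 0.11 without that library, when 9 were above 0, 5 below and 0 passed. Nfkbiz, which encodes IκBζ, a cofactor that IL-17A uses to induce antimicrobial genes, was at 11.5, 9.90 and 10.5 FPKM in the controls and at 65.0, 13.1 and 22.2 FPKM in JunBΔep 0, 1 and 2. It did not overlap, as for Defb14, nor did Rela, and 5.62% of all genes tested were wholly above. The Nfkbiz difference was 1.29 on the log2 scale (adjusted p = 0.681 by limma). It was 0.66 (adjusted p = 0.618 by limma) without the library labelled JunBΔep 0. Without that library Nfkbiz and Rela were wholly above the controls and Junb wholly below, beside 11.1% and 13.1% of all genes tested. Stat3, which carries the IL-22 signal, was at 37.2 to 41.7 FPKM in the controls and at 114, 31.5 and 50.4 FPKM in JunBΔep skin, and overlapped. Fosl1, a Fos-family member of AP-1, had 15.6 FPKM in the library labelled JunBΔep 0, against 0.141 to 0.414 FPKM in the other 5 mice.

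The receptors through which beta-defensins attract leukocytes were at low levels. Ccr6 was at 0.480, 0.143 and 0.101 FPKM in the controls and at 0.508, 0.0990 and 0.0422 FPKM in JunBΔep skin. Ccr2 was at 4.43 to 6.91 FPKM in the controls and at 1.64 to 10.3 FPKM in JunBΔep skin. Both overlapped between the groups and neither passed the test. Without the library labelled JunBΔep 0 neither passed either, and Ccr6 no longer overlapped, its 2 JunBΔep values lying below the controls, as for 13.1% of all genes tested. Ccl20, the chemokine ligand of CCR6, was highest in JunBΔep 2, at 9.43 FPKM, with a difference of 1.49 on the log2 scale (adjusted p = 0.633 by limma), and of 1.42 (adjusted p = 0.735 by limma) without the library labelled JunBΔep 0.

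Other antimicrobial genes differed in both directions. Of 17 tested, 7 were above 0 and 10 below, 0 passed, and the median was -0.31 on the log2 scale. S100a9 is among the 10, with a difference of -2.43 that includes its listed 0 in the library labelled JunBΔep 0 and of -0.57 without that library. With that library left out, 4 were above 0, 13 below and 0 passed, with a median of -0.45. Relative to the control mean, their median in the library labelled JunBΔep 0 was 2.15 on the log2 scale, beside 2.21 for the beta-defensins, in JunBΔep 1 it was -1.74, beside 0.03, and in JunBΔep 2 it was 0.16, beside 0.44. The controls themselves spread from -1.03 to 0.63 for these antimicrobial genes and from -0.11 to 0.13 for the beta-defensins. S100a8, a calcium-binding subunit of calprotectin, reached 24456 FPKM in the library labelled JunBΔep 0, and was at 744 FPKM in control 0 and at 8.15 to 65.6 FPKM in the other 4 mice. Slpi, an epithelial protease inhibitor with antimicrobial activity, reached 602 FPKM in that library, against 1.54 to 19.1 FPKM elsewhere. Camp, the cathelicidin gene of neutrophils, was highest in control 0, at 113 FPKM, against 4.37 FPKM in the library labelled JunBΔep 0.

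**Figure D4:**
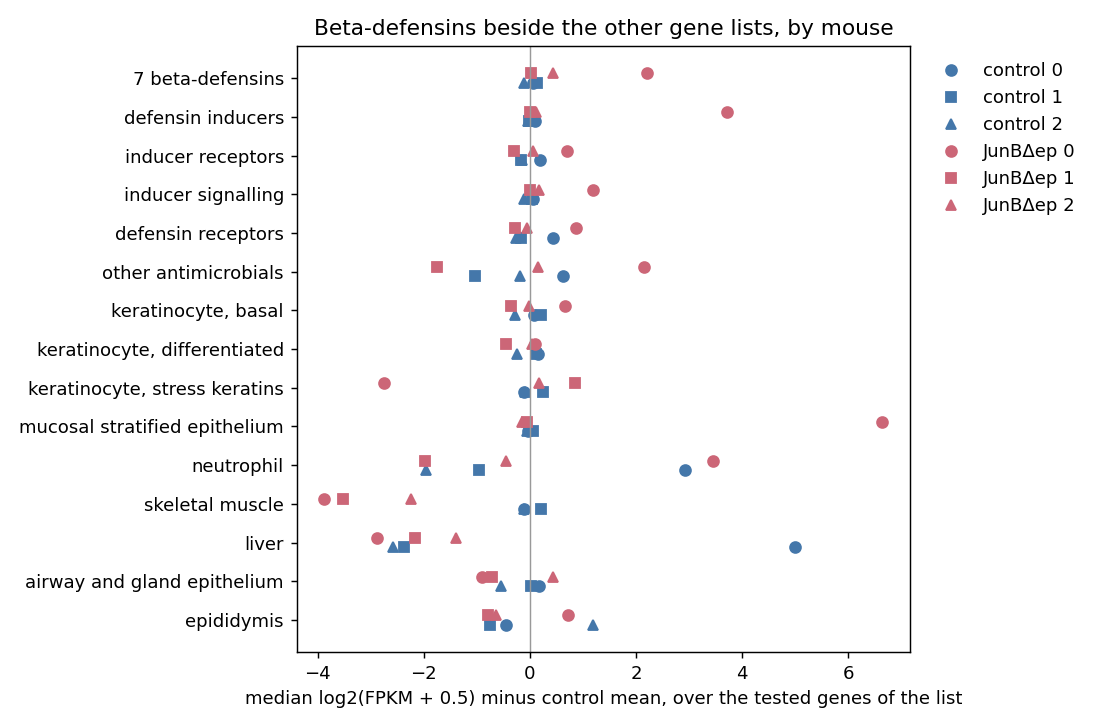
For the 7 beta-defensins and each of 14 gene lists, the median over the tested genes of log2(FPKM + 0.5) minus the control mean, with a point for each mouse. The library labelled JunBΔep 0 stands at 2.21 for the beta-defensins, 3.72 for their inducers and 6.65 for mucosal epithelium, while control 0 stands at 4.99 for liver.

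Genes of mucosal stratified epithelium were high in the library in which Defb14, Defb3 and Defb4 were high. The 7 mucosal markers summed to 9.12 to 84.7 FPKM in the controls and to 3839, 87.0 and 7.46 FPKM in JunBΔep 0, 1 and 2. Of the 7, 5 (Krt13, Krt4, Sprr3, Krt76 and Pax9) were highest in the library labelled JunBΔep 0. Krt13 reached 1989.6 FPKM there, against 0 to 0.367 FPKM for the other 5 mice. The exceptions were Crnn, highest in JunBΔep 1, and Krt24, highest in control 1. The 7 neutrophil markers summed to 291 FPKM in control 0 and to 2.51 and 7.03 FPKM in JunBΔep 1 and 2. Mpo, Elane and Ngp were highest in control 0. The other 4 were highest in the library labelled JunBΔep 0, where the 7 summed to 532 FPKM, 418 FPKM of it Retnlg. Krt17, a keratin of stressed epidermis and hair follicles, was at 4025 FPKM in the same library against 626 to 1319 FPKM in the others, but the other 3 keratins of its list, Krt6a, Krt6b and Krt16, were all listed at 0 there, and the median of the 4 was -2.75 relative to the control mean (log2). The part of these tissues and cells in the levels of Defb14, Defb3 and Defb4 was not tested.

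The genes nearest to each beta-defensin over the 6 mice were found by the root mean square distance between profiles of log2(FPKM + 0.5) minus the control mean. The profiles nearest to Defb14 were BC117090 (0.28), Serpinb3c (0.29), Ccl3 (0.39), Lce3d (0.40) and Mmp13 (0.40). Those nearest to Defb3 were genes of the cornified envelope, Lce3a (0.22), Sprr2j-ps (0.28), Sprr2g (0.30), Sprr2k (0.30) and Lce3b (0.31). Defb4 lay nearest to Irg1 (0.13), Csf3 (0.21), Krt76 (0.22), Cxcl5 (0.23) and Mmp13 (0.23). Mmp13 was thus among the 5 nearest of both Defb14 and Defb4. All of these genes had their highest level in the library labelled JunBΔep 0. There Defb14, Defb3 and Defb4 were 6.35, 8.55 and 6.98 above the control mean (log2), and within 0.76 of it in the other 5 mice. A near profile is therefore mainly one with a similar rise in that library.

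Defb1 and Defb6, which varied less, lay nearest to other genes with moderate differences. Hs3st1 (0.07), Sfrp4 (0.13), Tle6 (0.13), Fgfbp1 (0.16) and Degs1 (0.18) were nearest to Defb1. Fam71f2 (0.05), Plek2 (0.15), Klk11 (0.20), Gm19510 (0.20) and Rgs12 (0.21) were nearest to Defb6. The nearest profiles to Defb2, Adprm, Mpp4, 9130015A21Rik, Ilvbl and Zfp105, were at distances of 0.06 to 0.08. Defb8 had few close profiles. The nearest were 9130204L05Rik (0.85), C7 (2.19), Azgp1 (2.26), Serpina3k (2.31) and its neighbour Defb7 (2.76), all highest in control 0.

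The pair most alike in coding sequence was also the farthest apart in profile. Among the 21 pairs of the 7 genes, the shortest profile distances were those of Defb1 with Defb6 (0.42, at 53.4% identity), Defb4 with Defb14 (0.60, at 56.3%) and Defb3 with Defb4 (0.69, at 76.0%). The greatest was that of Defb3 with Defb8 (7.56), which were the most alike in coding sequence (83.1%). Defb4 and Defb6, the next most alike (78.6%), were 2.28 apart.

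**Figure D5:**
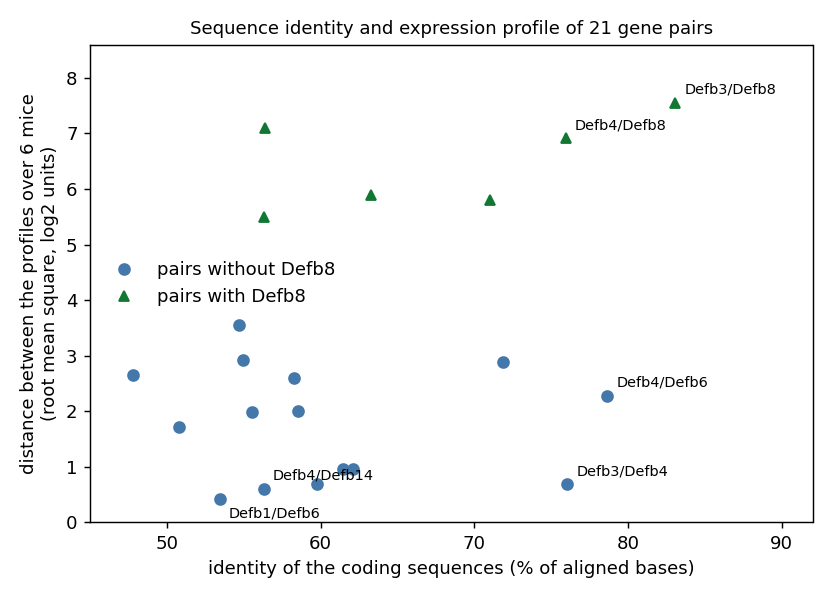
Each point is a pair of the 7 beta-defensins, with the identity of the aligned coding bases (percent) on the horizontal axis and the distance between profiles over the 6 mice (root mean square, log2 units) on the vertical axis. The pairs with Defb8 (triangles) lie above the others, and Defb3/Defb8 has both the highest identity, 83.1%, and the greatest distance, 7.56.

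The sequences before the start sites of Defb3, Defb6 and Defb8 are shown because these genes lie in the same cluster and yet Defb3 and Defb6 were highest in the library labelled JunBΔep 0 and Defb8 in control 0. They are the 250 bases before the annotated start from RefSeq on GRCm38.p6. The promoter set used here held 3 of the 7 genes, and capitals mark a run of 40 bases that is the same in all 3. Promoters of Defb1, Defb2, Defb4 and Defb14 are named only.
Defb3, chr8:19293111-19293360, plus strand: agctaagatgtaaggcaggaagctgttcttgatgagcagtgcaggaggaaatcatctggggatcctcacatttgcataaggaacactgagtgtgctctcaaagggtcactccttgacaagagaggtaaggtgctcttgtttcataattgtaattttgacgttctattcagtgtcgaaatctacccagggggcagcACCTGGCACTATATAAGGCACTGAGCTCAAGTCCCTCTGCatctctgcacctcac
Defb6, chr8:19225228-19225477, plus strand: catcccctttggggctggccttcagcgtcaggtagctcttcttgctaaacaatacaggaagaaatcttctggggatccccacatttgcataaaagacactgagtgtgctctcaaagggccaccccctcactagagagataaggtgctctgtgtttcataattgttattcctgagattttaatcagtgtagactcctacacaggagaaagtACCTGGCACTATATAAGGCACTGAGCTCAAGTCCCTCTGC
Defb8, chr8:19447607-19447856, minus strand: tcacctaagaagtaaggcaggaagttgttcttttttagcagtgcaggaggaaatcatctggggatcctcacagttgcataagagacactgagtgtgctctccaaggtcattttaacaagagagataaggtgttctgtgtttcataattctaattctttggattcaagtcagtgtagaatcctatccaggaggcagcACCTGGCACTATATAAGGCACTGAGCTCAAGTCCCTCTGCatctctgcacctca
The run ends 16 bases before the start in Defb3, 15 in Defb8 and 1 in Defb6. Over the aligned bases Defb3 and Defb8 were 89.4% identical, Defb3 and Defb6 81.7%, and Defb6 and Defb8 81.4%. The promoters of Defb3 and Defb8 were thus the most alike, while the library labelled JunBΔep 0 had 223 FPKM of Defb3 and 0.469 FPKM of Defb8.

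On both strands of these windows, the AP-1 motif TGANTCA was found 0 times in all 3 genes, and 6.75% of 32851 RefSeq promoters of the same length hold it. The STAT motif TTCNNNGAA was also found 0 times, against 7.02% of promoters. The NF-κB consensus was found at 1 place, in Defb6, 180 bases before the start, and in neither Defb3 nor Defb8, against 7.25% of promoters. A match describes letters and not a bound site, and 0 matches say only that the letters are not in these windows.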

How the data were processed

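Whole-skin RNA of 3 control and 3 JunBΔep mice was sequenced from stranded poly(A) libraries. Per the submitters' processing notes and the paper's methods, reads were checked with FastQC and aligned with TopHat2 2.0.10, Bowtie 1.0.0 and SAMtools 0.1.19 to mm9, with iGenomes annotation, 2 mismatches and up to 20 hits. The authors deposited FPKM values per gene and mouse. Cufflinks is listed with no role, and the tool that computed FPKM was not given in the sources used here. A DESeq2 test on read counts, which the study ran, was not used here. The read depth is unknown. Low values shared 1 ratio with those of control 0 for 14.2% to 17.4% of the 1520 to 1763 genes compared per library. This puts the libraries' totals at 0.955 to 1.14 times that of control 0.

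The 17021 genes whose mean reached 0.1 FPKM were compared as log2(FPKM + 0.5) in R 4.3.3 with limma 3.58.1, using an intensity trend without a block. All tests were two-sided. P-values were adjusted by Benjamini-Hochberg over all genes tested, and the threshold was 0.05. Differences are on this scale, which understates those of low genes. The procedure was tested on simulated data. The members, the 5 pathway lists, the 9 marker lists and the motifs were chosen with earlier results of these data known. The genes named are the 7 members, other Defb rows, Junb, genes of the lists and the 5 nearest profiles of each member. Defb5, below the mean of 0.1 FPKM, was named after its values were seen. Distances to a member are root mean squares over the 6 mice. Coding sequences and positions are from GENCODE vM1 on mm9, aligned with Biopython 1.88, and 250-base promoters from RefSeq on GRCm38.p6. Python 3.11.15 with pandas 2.3.3 and matplotlib 3.10.9 made the tables and plots. In all, 18 alternatives were tried, and for the count of genes wholly above the controls also the scaling to Krt5 without the library labelled JunBΔep 0, chosen after seeing the data.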

Additional observations from a re-analysis of the deposited data

How the results depend on the processing

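Of the 7 beta-defensins, 0 passed the limma test in the reported fit and in each of the 18 alternatives, where the lowest adjusted p was 0.119 (Defb8, without control 1). The number of all genes that passed, 235, was 0 with the replicate block, 0 with a block on the number series of the titles and 0 when scaled to Krt5, an alternative chosen after seeing the data. It ranged from 0 to 254 when each mouse was left out in turn, with 0 without any of controls 0, 1 and 2 or JunBΔep 1, 135 without the library labelled JunBΔep 0 and 254 without JunBΔep 2. It was 166 with no filter. The number of beta-defensins wholly above the controls, 2, was 1 with median-ratio scaling, 3 with a sum of 1000000 per library and 4 when scaled to Krt5 (4 also without the library labelled JunBΔep 0), and 2 to 3 when a mouse was left out of the unscaled values. The difference for Defb2 turned to -0.014 without control 2 and to -0.046 without JunBΔep 2, within a range of -0.046 to 0.27 when a mouse was left out. The other 6 genes kept their direction in every alternative that could test them, Defb8 from -9.18 to -3.998 and Defb14 from 0.65 to 3.55. Defb4 could not be tested without the library labelled JunBΔep 0, nor Defb2 with a filter at a mean of 1 FPKM. Fits without a mouse hold fewer samples, and the cause of the other shifts was not tested.

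Same-numbered deviations from the group means correlated at 0.12, -0.23 and -0.43, and differently numbered ones at -0.37 to 0.46. Deviations within a group of 3 sum to 0, so these values cannot show whether the replicate numbers pair the samples. With the replicate block the median difference of the 7 genes was 0.82 and 0 of 7 passed. With 3 mice a group and no read counts, levels of a few steps, as for Defb2, Defb3 and Defb4 outside the library labelled JunBΔep 0, cannot show a difference.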
